A study of Mus musculus with 30 samples.

Results

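Potassium channel subunit genes were taken as the protein-coding genes whose mouse symbol begins with Kcn, followed by letters and a number, and whose mean normalised count was at least 10 over all 30 libraries. They were 80 of the 19737 genes measured: 37 pore-forming subunits of voltage-gated (Kv) channels, 12 of inward rectifiers (Kir), 11 of tandem-pore leak channels (K2P), 8 of calcium-activated channels and their sodium- and pH-activated relatives (KCa), and 12 auxiliary subunits. Kcnv2 and Kcnj15, with means of 5.94 and 5.69, fell below that minimum. RNA came from the whole brain of male C57BL/6N mice, and each of 6 groups had 5 libraries. WT-P10 and HT-P10 were untreated wild-type and Arid1b+/- mice at postnatal day 10. The adult groups were WT-Veh and HT-Veh, and WT-Flx and HT-Flx: mice of postnatal day 120 whose dams drank 0.2% saccharin water from postnatal day 3 to 21, without fluoxetine (Veh) or with 0.1 mg/ml fluoxetine (Flx), a serotonin reuptake inhibitor that reached the pups through the milk. HT mice carried, in all cells, 1 Arid1b allele with a protein-truncating mutation at exon 5. The paper describes it as an insertion of TT and, in its methods, as a deletion together with that insertion. Arid1b encodes a subunit of the BAF chromatin remodelling complex. Adult groups therefore share saccharin with each other but not with the P10 groups, and their library names carry another prefix, so that age, saccharin and library set cannot be told apart.

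Potassium channels set the resting potential, end the action potential and limit how fast a neuron can fire again. Kv subunits open on depolarisation, Kir subunits pass current mainly near or below rest and set the potassium buffering of glia, K2P subunits leak at all voltages, and KCa subunits open when calcium or sodium enters the cell. Auxiliary subunits (Kcnab, Kcne, Kcnip, Kcnmb) carry no current but change the gating and surface delivery of the pore, and the silent Kv subunits (Kcnf, Kcng, Kcns, Kcnv) act only in mixed channels with Kcnb subunits.

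A normalised count here is the read count of a gene that the authors estimated and scaled by DESeq2, so the depth of each library is unknown and errors given here come from the differences among mice of a group. Arid1b, the targeted gene, ranged over 3164 to 3309 normalised counts in WT-P10, 2162 to 2334 in HT-P10, 2961 to 3392 in WT-Flx and 2164 to 2616 in HT-Flx. The libraries labelled WT-Veh replicate 2, with 2320, and HT-Veh replicate 2, with 3361, went against their labels. They were kept under those labels in every comparison but that of HT-Veh with WT-Veh, and counts without them are given for each comparison that uses them. Libraries also differed in the balance of GC-rich and GC-poor genes. Taking each gene's deviation from its mean over all libraries, this balance was the median of the 20% of genes highest in GC content minus that of the 20% lowest. It ranged from 0.75 to 1.61 (log2) in HT-Flx, from -0.49 to -0.31 in WT-Flx and from -0.48 to 1.03 in HT-Veh. In WT-Veh it ranged from -0.24 to 0.56, in WT-P10 from -0.48 to -0.42 and in HT-P10 from -0.80 to -0.45, so the 2 ages did not overlap in WT. The first principal component of the adult libraries, 43.9% of the variance, placed every HT-Flx library between 28.1 and 80.8 and every WT-Flx library between -51.4 and -33.4. In whole-brain RNA, fewer cells of a type and less RNA per cell cannot be told apart.

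Per kilobase of transcript, the most abundant member of the adult WT-Veh brain was Kcnab2, a cytoplasmic beta subunit of Kcna channels, with 9751 normalised counts per kb. Kcnip2, a partner of Kcnd channels, had 3505 and Kcnt1 2578. At P10 in WT, Kcnip2 had 2432, Kcnab2 2304 and Kcnma1 1962. Summed over a class, the Kv level was 17922 ± 579 per kb in WT-P10 (SD, n = 5) and 26471 ± 1400 in WT-Veh, the Kir level 5650 ± 354 and 8661 ± 373, and the auxiliary level 9407 ± 460 and 18966 ± 1599. The K2P sum, 4225 ± 134 in WT-P10 and 4619 ± 391 in WT-Veh, lay closer together, and the KCa sum was 4675 ± 69.3 and 6270 ± 207. Kcnab2 alone made up 51.4% of the adult auxiliary sum and 24.5% of that at P10. A level per kb uses the mean length of the annotated coding transcripts, so it shifts where a gene's transcripts differ in length.

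**Figure D1:**
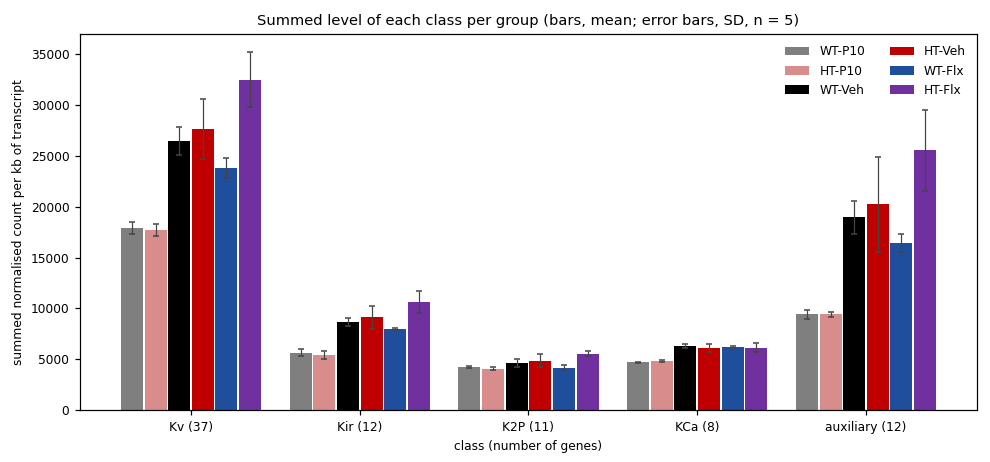
Summed normalised count per kb of transcript (y axis) of each of the 5 classes (x axis, number of genes in brackets) in the 6 groups; bars are means and error bars SD of 5 libraries. Kv and auxiliary sums stand higher in the 4 adult groups than in both P10 groups, and highest in HT-Flx, with 32502 for Kv and 25548 for auxiliary subunits.

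The comparison of WT-Veh with WT-P10 asks how channel RNA differs between the adult and the early postnatal brain. By limma with Benjamini-Hochberg adjustment over all 17927 genes tested, 58 of the 79 members tested passed, 35 higher and 23 lower at P120. The background is high: 58.3% of all genes passed, 28.9% higher and 29.4% lower. Among the members these shares were 44.3% and 29.1%, and their median log2 fold change was 0.17, against -0.01 over all genes. Fold changes correlated with the GC content of transcripts at a Pearson's r of 0.415 across members and 0.234 across all genes, where points share libraries. Median GC content was 53.39% for the members and 50.45% for all genes. Of the members, 49 had groups that did not overlap, 32 higher and 17 lower, a pattern found in 45.6% of all genes. Without WT-Veh replicate 2 the count was also 58, with 57 genes in common. After a correction of every library for GC and length of transcripts, a step chosen after the data were seen, 57 passed and 51 of them had passed before. The share of all genes that passed after it is not given here, so 57 is not set against them. That correction ended the call of Kcnd2, Kcnd3, Kcnh7, Kcnj6, Kcnq5, Kcns1 and Kcns2 and added Kcng3, Kcnj3, Kcnma1, Kcnmb4 and Kcnn3 among others, so these calls depended on it. Several lists of cell type markers moved between these ages with sums that did not overlap and no marker at 0. Neural progenitor markers summed to 10313 to 15698 in WT-P10 and 830.4 to 2000 in WT-Veh, with 4 of 4 lower, and oligodendrocyte precursor markers to 4926 to 5922 and 2488 to 2911, with 2 of 2 lower. GABAergic markers summed to 17667 to 19171 and 24689 to 28468, with 2 of 3 higher, and glutamatergic markers to 30001 to 34411 and 38454 to 53242, with 1 of 3 higher and 2 lower. Their part in the members' changes was not tested.

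**Figure D2:**
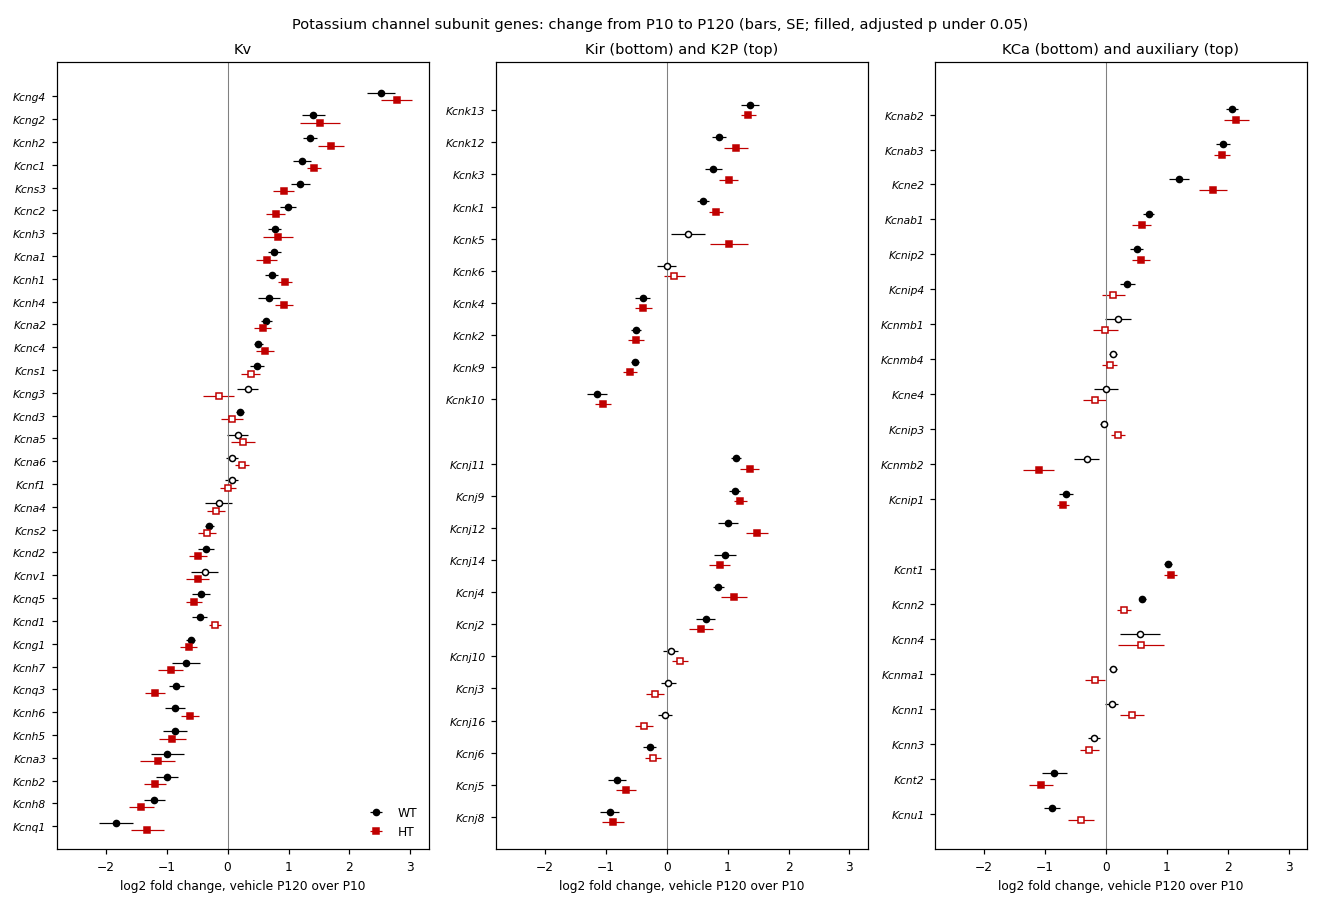
Log2 fold change from P10 to P120 (x axis) of 75 members tested (y axis), in 3 panels by class, with WT as black circles and HT as red squares; bars are SE and filled symbols passed an adjusted p of 0.05. The symbols of WT and HT lie close together for most genes, from Kcng4 at 2.52 and 2.77 to Kcnq1 at -1.84 and -1.31.

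Kcnc1 and Kcnc2, which encode fast delayed rectifiers known from fast-spiking neurons, and Kcnc4, a rapidly inactivating relative named here after its values were seen, were higher at P120. Kcnc1 had 4750, 5180, 4897, 4358 and 6331 normalised counts in WT-P10 and 8533, 10137, 15169, 14425 and 12381 in WT-Veh. Kcnc2 had 1363, 1406, 1390, 1097 and 1694 at P10 and 3188, 2902, 1990, 2906 and 2915 at P120. For both the lowest adult library lay above the highest P10 library. The log2 fold changes were 1.23 for Kcnc1 (SE 0.15, adjusted p = 1.42e-05), 0.99 for Kcnc2 (SE 0.13, adjusted p = 2.99e-05) and 0.50 for Kcnc4 (SE 0.073, adjusted p = 6.55e-05). Pvalb, which marks a class of fast-spiking interneurons, ranged from 780 to 1351 in WT-P10 and from 1625 to 6822 in WT-Veh; its part in the Kcnc result was not tested.

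Kcng4, a silent subunit, had the largest rise of any member. Its values were 342.7, 374, 353.2, 292.2 and 566.5 in WT-P10 and 1344, 1793, 2718, 3409 and 2106 in WT-Veh, 5.90-fold higher by the means (log2 fold change 2.52, SE 0.23, adjusted p = 1.10e-06). Kcng1, another silent subunit, also named after its values were seen, fell by 0.60 on the log2 scale (SE 0.077, adjusted p = 2.21e-05). Per kb, Kcng1 made up a median of 74.3% of the Kcng sum in WT-P10 and 32.4% in WT-Veh, whereas Kcng4 made up 11.6% and 45.8%. The ranges of these shares did not overlap between the ages.

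The promoter regions of Kcnc1, Kcnc2, Kcnc4 and Kcng4, which rose, and of Kcnh8, which fell, are shown because these genes mark both directions of the age comparison. Each is the 250 bases before a RefSeq transcription start (GRCm38.p6), read 5′ to 3′ on the gene's strand, with GGGCGG or its complement CCGCCC, the core of the GC box, in capitals. Where RefSeq lists several starts, as for Kcnc2, the start nearest the annotated gene start was used.
Kcnc1: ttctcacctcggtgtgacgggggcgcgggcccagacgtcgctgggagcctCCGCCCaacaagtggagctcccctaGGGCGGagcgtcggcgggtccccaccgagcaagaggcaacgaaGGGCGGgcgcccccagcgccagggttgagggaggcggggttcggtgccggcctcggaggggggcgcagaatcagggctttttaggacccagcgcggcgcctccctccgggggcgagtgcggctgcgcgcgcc
Kcnc2: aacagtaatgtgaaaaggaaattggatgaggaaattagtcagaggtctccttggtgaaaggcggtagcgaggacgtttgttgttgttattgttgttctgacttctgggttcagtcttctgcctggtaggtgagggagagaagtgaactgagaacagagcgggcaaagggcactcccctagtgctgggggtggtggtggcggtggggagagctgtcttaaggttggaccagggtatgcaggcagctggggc
Kcnc4: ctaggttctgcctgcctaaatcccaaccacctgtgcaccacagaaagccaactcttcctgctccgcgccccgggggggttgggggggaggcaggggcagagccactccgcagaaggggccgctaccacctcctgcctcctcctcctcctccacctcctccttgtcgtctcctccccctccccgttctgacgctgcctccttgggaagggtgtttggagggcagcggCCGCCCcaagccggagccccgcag
Kcng4: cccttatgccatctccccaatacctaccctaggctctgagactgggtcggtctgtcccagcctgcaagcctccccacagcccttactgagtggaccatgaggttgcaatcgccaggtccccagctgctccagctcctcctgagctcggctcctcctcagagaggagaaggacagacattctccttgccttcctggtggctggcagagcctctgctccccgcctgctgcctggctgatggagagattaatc
Kcnh8: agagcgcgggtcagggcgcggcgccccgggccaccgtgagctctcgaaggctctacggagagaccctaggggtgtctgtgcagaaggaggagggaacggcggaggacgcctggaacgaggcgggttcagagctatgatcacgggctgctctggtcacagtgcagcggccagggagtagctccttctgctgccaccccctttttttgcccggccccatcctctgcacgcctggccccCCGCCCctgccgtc
The windows are chr7:46396218-46396467 on the plus strand for Kcnc1, chr10:112270871-112271120 on the plus strand for Kcnc2, chr3:107458899-107459148 on the minus strand for Kcnc4, chr8:119635681-119635930 on the minus strand for Kcng4 and chr17:52602459-52602708 on the plus strand for Kcnh8. Kcnc1 holds 3 matches, Kcnc4 and Kcnh8 1 each, and Kcnc2 and Kcng4 none. RefSeq promoters of 300 bases were listed for 57 of the 80 members, 81 windows in all. GGGCGG on either strand was found in 51.9% of them and in 35.7% of all 32851 promoters, TATAAA on either strand in 3.70% and 13.6%, and TGACGTCA, which reads the same on both strands, in none and in 1.79%. Median GC content was 59.7% for the members' promoters and 52.7% for all. The share with GGGCGG was 51.5% among members that rose with age in WT, 52.2% among those that fell and 52.0% among those not called.

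The other Kv families moved in both directions. Over the class, 17 of 37 genes rose and 13 fell. Here and after, the size of a rise or fall is its log2 fold change. Kcna1 and Kcna2, low-threshold delayed rectifiers of axons, rose by 0.77 (SE 0.11, adjusted p = 5.01e-05) and 0.63 (SE 0.093, adjusted p = 6.84e-05). Kcna3, best known from lymphocytes and microglia, had 325.5, 308.1, 288.6, 341.7 and 322.7 normalised counts in WT-P10 and 248.8, 210.7, 66.02, 151.6 and 194.6 in WT-Veh. All adult libraries lay below all P10 libraries and spread widely, and the fold change was -0.99 (SE 0.28, adjusted p = 0.0079). Kcna3 and Kcna2 are neighbours on chromosome 3, 63.1 kb apart on the same strand.

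Kcnb2, a slow delayed rectifier of the neuronal soma, fell by 1.00 (SE 0.18, adjusted p = 0.000401). Of the 8 Kcnh genes, of the ether-a-go-go family, 4 rose and 4 fell. Kcnh2 (ERG) rose by 1.35 (SE 0.11, adjusted p = 4.61e-07) and Kcnh1 by 0.72 (SE 0.11), whereas Kcnh8 fell by 1.21 (SE 0.17, adjusted p = 5.62e-05) and Kcnh5 by 0.87 (SE 0.20). Kcnh8 had 84.71, 78, 81.15, 101.4 and 59.43 normalised counts in WT-P10 and 30.81, 35.54, 42.54, 29.62 and 32.9 in WT-Veh, with no overlap.

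Kcnq3, a pore of the M-current, which restrains repetitive firing, had 7407, 7508, 7389, 7918 and 7082 normalised counts at P10 and 5206, 5061, 2954, 3733 and 4317 at P120. The groups did not overlap, and Kcnq3 fell by 0.84 (SE 0.13, adjusted p = 0.000105). Per kb, it made up a median of 14.3% of the Kcnq sum in WT-P10 and 6.40% in WT-Veh. The direction was the same after the GC and length correction, with a fold change of -0.45. Kcnq1, an epithelial and cardiac subunit named here after its values were seen, fell from a mean of 55.7 ± 17.2 normalised counts to 14.8 ± 4.53 (log2 fold change -1.84, SE 0.28, adjusted p = 9.68e-05). Kcnd2, a pore of the dendritic A-type current, fell by 0.36 (SE 0.13, adjusted p = 0.0261), and was at 0.03 after the correction.

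**Figure D3:**
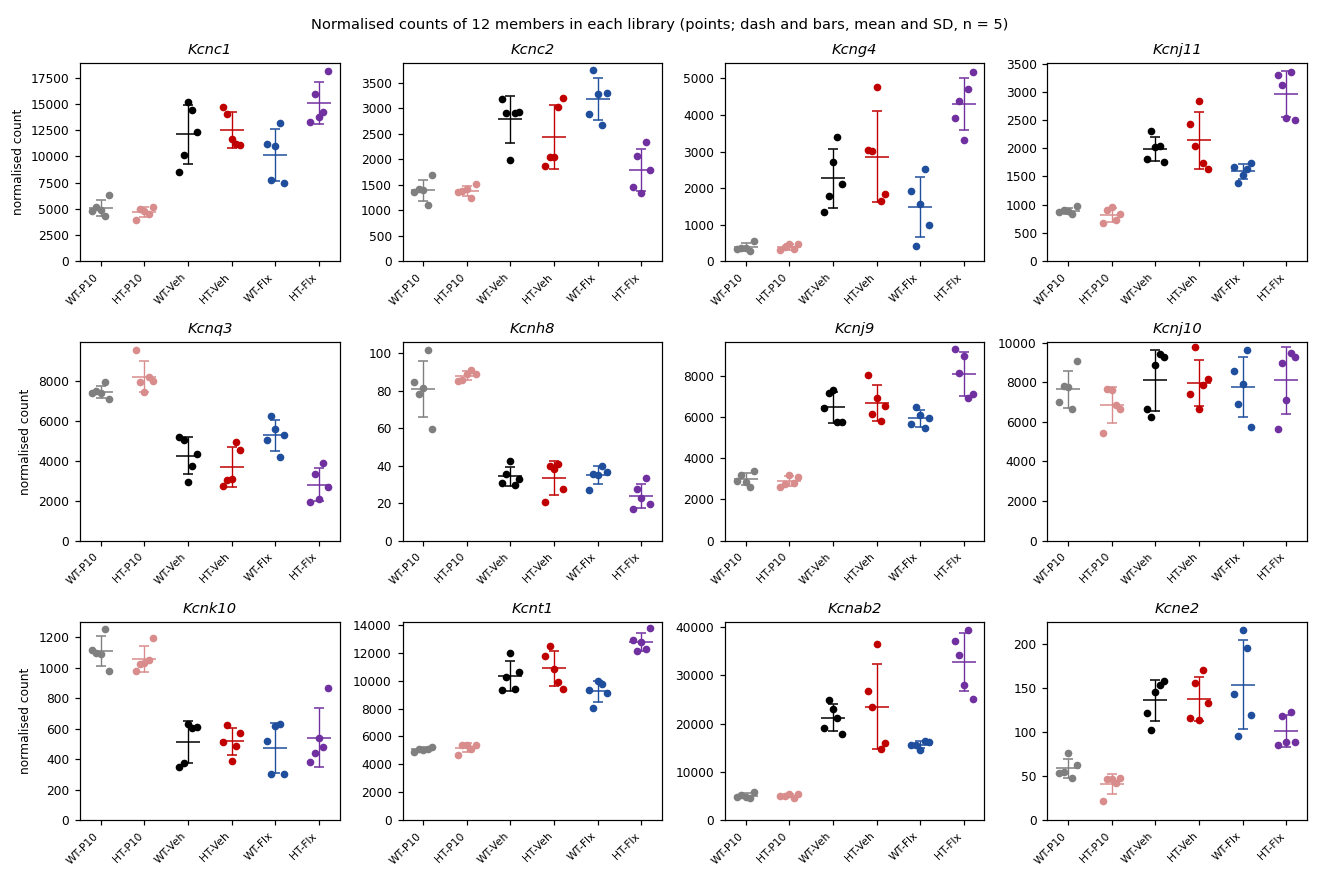
Normalised count (y axis, from 0) of 12 members in each library of the 6 groups (x axis); points are libraries, the dash and bars mean and SD of 5. Kcnj11 is higher and Kcnq3 lower in WT-Veh and HT-Veh than at P10, Kcnj10 overlaps between WT-P10 and WT-Veh, and HT-Flx stands above WT-Flx for Kcng4, Kcnt1 and Kcnab2.

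Of the 12 Kir genes 6 rose and 3 fell. Kcnj9, a G-protein-gated subunit, had 2914, 3178, 2847, 2610 and 3379 normalised counts in WT-P10 and 6431, 7170, 7308, 5748 and 5733 in WT-Veh (log2 fold change 1.12, SE 0.091, adjusted p = 4.26e-07). Its family partners differed from it: Kcnj3 was at 0.02 (SE 0.12, adjusted p = 0.875), Kcnj6 fell by 0.28 (SE 0.11, adjusted p = 0.0461) and Kcnj5 fell by 0.82 (SE 0.15, adjusted p = 0.000438). Kcnj3 was at 0.46 after the GC and length correction and then passed (adjusted p = 3.5e-05), and Kcnj6 at -0.04 did not. Kcnj10, the main inward rectifier of astrocytes, lies 11.9 kb from Kcnj9 on chromosome 1. It had 6983, 7834, 7750, 6667 and 9077 normalised counts in WT-P10 and 6629, 6257, 8862, 9445 and 9279 in WT-Veh, with overlap and no call (log2 fold change 0.07, SE 0.13, adjusted p = 0.676).

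Kcnj11, the pore of the neuronal ATP-sensitive channel, had 878.6, 905, 887, 830.9 and 979.8 normalised counts in WT-P10 and 1814, 2314, 2025, 2032 and 1764 in WT-Veh, a rise of 1.15 (SE 0.081, adjusted p = 1.28e-07). Kcnj8, the pore of the vascular ATP-sensitive channel and a marker of pericytes, went the other way, with 191.6, 160.3, 235.2, 242.1 and 177.2 in WT-P10 and 103.2, 89.31, 141.7, 94.66 and 97.02 in WT-Veh (log2 fold change -0.93, SE 0.16, adjusted p = 0.000212). Neither gene's groups overlapped. The same split was found in their sulfonylurea receptor partners: Abcc8, which pairs with Kcnj11, rose by 0.55 (SE 0.10, adjusted p = 0.000554), and Abcc9, which pairs with Kcnj8, fell by 1.24 (SE 0.10, adjusted p = 5.27e-07). The summed level of 4 pericyte and mural markers, Kcnj8 among them, ranged from 6762 to 7306 in WT-P10 and from 3099 to 3585 in WT-Veh, with 3 of 4 lower and none at 0; its part in the Kcnj8 result was not tested. Kcnj12 and Kcnj14, strong rectifiers, rose by 1.01 (SE 0.16) and 0.96 (SE 0.18).

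Of the 10 K2P genes tested 4 rose and 4 fell. Kcnk13 had 127.7, 129.8, 156.9, 99.43 and 147.1 normalised counts in WT-P10 and 283.3, 288.2, 361.8, 408.4 and 366.6 in WT-Veh, a rise of 1.37 (SE 0.14, adjusted p = 4.02e-06). Kcnk10, a mechanosensitive channel of the TREK group, had 1116, 1101, 1094, 1255 and 979.6 at P10 and 350.5, 373.1, 632.6, 604.6 and 609.4 at P120, a fall of 1.15 (SE 0.17, adjusted p = 5.98e-05). Neither gene's groups overlapped. Kcnk12, Kcnk3 (TASK) and Kcnk1 rose by 0.86 (SE 0.12), 0.77 (SE 0.14) and 0.60 (SE 0.11), and Kcnk9 (TASK), Kcnk2 (TREK) and Kcnk4 (TRAAK) fell by 0.52 (SE 0.065), 0.50 (SE 0.087) and 0.39 (SE 0.13). Per kb, Kcnk1 made up a median of 32.2% of the K2P sum in WT-P10 and 44.8% in WT-Veh, and Kcnk2 21.5% and 12.6%, with ranges that did not overlap.

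Of the 8 KCa genes 2 rose and 2 fell. Kcnt1, a sodium-activated channel, had 4873, 5113, 5060, 5102 and 5238 normalised counts in WT-P10 and 9366, 10264, 11985, 9435 and 10601 in WT-Veh, a rise of 1.02 (SE 0.070, adjusted p = 9.61e-08). Its relative Kcnt2 fell by 0.85 (SE 0.21, adjusted p = 0.00325), and its 5 P10 values, 745.8 to 815.7, lay above the adult range of 259.1 to 655.5. Kcnn2, a small-conductance channel of the afterhyperpolarisation, rose by 0.60 (SE 0.062, adjusted p = 3.31e-06). Kcnma1, the pore of the large-conductance BK channel, had 7012 to 7669 in WT-P10 and 6747 to 8446 in WT-Veh, with overlap (log2 fold change 0.12, SE 0.068, adjusted p = 0.136). Kcnmb4, its neuronal beta subunit, was at 0.12 (SE 0.065, adjusted p = 0.138), and after the GC and length correction at -0.23 (adjusted p = 0.00476). Kcnu1, a pH-activated relative best known from sperm, fell by 0.88 (SE 0.13) from 93.44 to 118.2 normalised counts at P10 to 50.05 to 63.84 at P120.

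Of the 12 auxiliary genes 6 rose and 1 fell. Kcnab2 had 4687, 5091, 4770, 4642 and 5875 normalised counts in WT-P10 and 19075, 24835, 22961, 21259 and 17937 in WT-Veh. Its lowest adult library was above its highest P10 library by a wide margin, and the means differed 4.23-fold (log2 fold change 2.08, SE 0.096, adjusted p = 4.00e-09). Kcnab3 and Kcnab1, the other beta subunits of Kcna channels, rose by 1.92 (SE 0.12, adjusted p = 3.30e-08) and 0.70 (SE 0.093, adjusted p = 3.10e-05). Kcnip1, a calcium-binding partner of Kcnd channels, fell by 0.66 (SE 0.12, adjusted p = 0.000333), and Kcnip4 rose by 0.35 (SE 0.12, adjusted p = 0.0221). Kcnmb1 lies inside Kcnip1 on the opposite strand of chromosome 11, and strand use in the counting is not given in the sources used here, so reads where their transcripts overlap may be shared.

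Kcne2, a small subunit known from the choroid plexus, where it works with Kcnq1, had 53.44, 55.14, 76.23, 47.73 and 62.29 normalised counts in WT-P10 and 121.4, 102.3, 146.1, 153.4 and 158.2 in WT-Veh, a rise of 1.20 (SE 0.16, adjusted p = 4.28e-05) while Kcnq1 fell. The summed level of 5 choroid plexus markers ranged from 11586 to 15818 in WT-P10 and from 22784 to 34113 in WT-Veh, with 4 of 5 higher, 1 lower and none at 0; its part in the Kcne2 result was not tested.

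In Arid1b+/- mice, HT-Veh was compared with HT-P10 in the same way. Of 79 members, 53 passed, 32 higher and 21 lower, against 51.1% of all genes (25.8% higher and 25.3% lower), and 46 had groups that did not overlap (40.2% of all genes). Without HT-Veh replicate 2, which went against its label, 50 passed, and after the GC and length correction 58. The shares of all genes in these 2 settings are not given here. Fold changes as deposited correlated with GC content at r = 0.511 across members and 0.341 across all genes. The comparisons in WT and in HT have no library in common. Of the members, 50 passed in both with the same direction, none in opposite directions, 8 in WT alone and 3 in HT alone, and across the 79 genes the log2 fold changes correlated with Pearson's r of 0.965 and Spearman's rho of 0.967, a description over genes that are not independent. Over all 17729 genes r was 0.921.

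Kcng4 had 301.2, 383.6, 468.1, 342.9 and 474.4 normalised counts in HT-P10 and 3033, 3013, 4776, 1659 and 1837 in HT-Veh (log2 fold change 2.77, SE 0.25, adjusted p = 2.31e-06). Kcnab2 had 4922, 5003, 5365, 4549 and 5333 in HT-P10 and 26863, 23407, 36468, 14715 and 16060 in HT-Veh (2.14, SE 0.21, adjusted p = 4.13e-06). Kcnc1, with 3950 to 5135 and 11140 to 14684, did not overlap either. The adult HT libraries spread more than those of WT for Kcnab2, with the highest values in replicates 1, 2 and 3. Kcnq3 fell by 1.20 (SE 0.16), Kcnj11 rose by 1.36 (SE 0.16) and Kcnj8 fell by 0.88 (SE 0.18), and Kcnk13 rose by 1.34 (SE 0.13) and Kcnk10 fell by 1.04 (SE 0.13), the same directions as in WT.

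The difference of the age effect between HT and WT was tested directly, by an interaction term in limma over the 20 libraries of these groups. No member passed, nor did any of the 17978 genes tested (0% of all genes). At an unadjusted p under 0.05, 2 of 79 members and 3.40% of all genes were found. These members were Kcnmb2, a BK beta subunit, at -0.79 (SE 0.34, adjusted p = 0.877) and Kcnn2 at -0.31 (SE 0.13, adjusted p = 0.877). The difference for Kcne2 was 0.57 (SE 0.29, adjusted p = 0.877). Without the vehicle libraries numbered 2 no member passed either. Kcne2 in HT-P10 replicate 1, 21.33, lay far below the other HT-P10 libraries at 42.63 to 47.79.

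Between genotypes at P10 (HT-P10 against WT-P10), by limma with Benjamini-Hochberg adjustment, no member of 79 passed, and 4 of 17896 genes did (0.0224%). At an unadjusted p under 0.05, 11 members and 12.6% of all genes were found. Kcnd2 had 3852, 3900, 3850, 3937 and 3843 normalised counts in WT-P10 and 4200, 4091, 4062, 4115 and 4354 in HT-P10, with no overlap, but a log2 fold change of 0.10 (SE 0.033, adjusted p = 0.315). Kcnq5, an M-current subunit, had 2347, 2358, 2434, 2438 and 2226 in WT-P10 and 2981, 2566, 2482, 2592 and 2526 in HT-P10, also without overlap (0.15, SE 0.052, adjusted p = 0.317). The exact permutation p of each was 0.00794, the smallest that 5 against 5 allows, and 3.12% of all genes did not overlap. Kcnip3, a Kcnd partner, overlapped, at -0.18 (SE 0.064, adjusted p = 0.332). Larger differences were found in genes of low level, named after their values were seen: Kcne2 at -0.55 (SE 0.22, adjusted p = 0.355), Kcnk5 at -0.63 (SE 0.31, adjusted p = 0.409) and Kcnq1 at -0.46 (SE 0.27, adjusted p = 0.477), each with overlap.

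At P120, HT-Veh and WT-Veh were compared in replicates 1, 3, 4 and 5, which leaves out the libraries that go against their labels. No member passed, and 0% of all genes did. At an unadjusted p under 0.05 there was no member and 1.29% of all genes. With all 5 and 5 libraries no member passed either. Kcnmb1, the smooth-muscle BK beta subunit, had 26.81, 32.67, 28.61 and 32.8 normalised counts in WT-Veh and 20.97, 25.26, 22.05 and 21.29 in HT-Veh, without overlap (log2 fold change -0.42, SE 0.24, adjusted p = 1.00, exact permutation p = 0.0286, the smallest for 4 against 4). HT-Veh replicate 2, with 29.45, and WT-Veh replicate 2, with 23.55, would each lie within the other group. Kcnh1 and Kcnd1 were at 0.29 (SE 0.16) and 0.25 (SE 0.14). Non-overlap was found in 1.04% of all genes.

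Early fluoxetine was first compared with vehicle within each genotype. In HT-Flx against HT-Veh no member of 80 passed in limma, as no gene did (0%), although 25 members and 23.1% of all genes had an unadjusted p under 0.05. Without HT-Veh replicate 2 no member passed either, whereas a fit of all 6 groups, which share one estimate of the spread, called 23, 16 higher and 7 lower. The share of all genes that this fit called is not given here, so its count of members is not set against them. Kcnk5, an acid-sensitive leak channel at a low level, had 46.16, 51.1, 68.42, 44.36 and 24.38 normalised counts in HT-Veh and 69.13, 109, 68.85, 114.7 and 74.31 in HT-Flx (log2 fold change 0.92, SE 0.27, adjusted p = 0.215). Kcnj8 had 86.56, 110.5, 87.35, 99.02 and 111.9 in HT-Veh and 142.6, 160.3, 137.5, 117.6 and 148.2 in HT-Flx (0.51, SE 0.15, adjusted p = 0.215). Both were without overlap, as were Kcnd1 and Kcnj12 among others, and these were higher in HT-Flx, where 1.62% of all genes did not overlap. Kcnk15, a TASK relative at a low level, was at 1.12 (SE 0.38, adjusted p = 0.215) with overlap. Fold changes correlated with GC content at r = 0.73 across members and 0.67 across all genes. After the GC and length correction Kcnk15 was at 0.76, Kcnk5 at 0.69, Kcnj8 at 0.36, Kcnd1 at 0.11 and Kcnj12 at 0.06.

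In WT-Flx against WT-Veh no member of 80 passed and 0% of all genes did, with 16 members and 25.2% of all genes at an unadjusted p under 0.05. Kcnab1 had 3142, 2888, 2320, 3032 and 3441 normalised counts in WT-Veh and 3541, 3708, 3979, 3876 and 3911 in WT-Flx (log2 fold change 0.37, SE 0.094, adjusted p = 0.0849). Kcnab2 had 15546, 15649, 14487, 16362 and 16157 in WT-Flx, all below the lowest WT-Veh library of 17937 (-0.43, SE 0.089, adjusted p = 0.0849). Kcnn1, a small-conductance KCa pore, had 737.4, 905.5, 758.6, 879.1 and 691.3 in WT-Veh and 623.9, 589.5, 574.7, 612.3 and 647.9 in WT-Flx (-0.37, SE 0.089, adjusted p = 0.0849). These 3 genes and Kcnj11 did not overlap, against 6.41% of all genes. Fold changes correlated with GC content at r = -0.66 across members and -0.58 across all genes. After the GC and length correction Kcnab1 was at 0.12, Kcnab2 at -0.25, Kcnn1 at -0.19 and Kcnj11 at -0.06. Leaving out WT-Veh replicate 2 gave no call, leaving out WT-Veh replicate 1 gave 7, and leaving out WT-Veh replicate 5 gave 3.

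HT-Flx against WT-Flx, which compares the genotypes among fluoxetine-treated mice, gave the most calls of the adult comparisons. By limma 54 of 80 members passed, 31 higher and 23 lower in HT-Flx, against 63.7% of all genes (33.1% higher and 30.5% lower), a share of 67.5% for the members. Groups did not overlap in 33 members and in 48.5% of all genes. Kcng4 had 1912, 406.1, 1577, 2527 and 994 normalised counts in WT-Flx and 3908, 4373, 3315, 4698 and 5176 in HT-Flx (log2 fold change 1.76, SE 0.38, adjusted p = 0.00155). Kcnab2, at 14487 to 16362 in WT-Flx, had 37092, 34188, 28080, 39361 and 25054 in HT-Flx (1.05, SE 0.12, adjusted p = 3.49e-05). Kcnh2 (1.14, SE 0.12), Kcnj12 (1.00, SE 0.19), Kcnk3 (0.97, SE 0.16) and Kcna6 (0.77, SE 0.084) were also higher. Kcnh7 (-1.24, SE 0.25), Kcnt2 (-1.18, SE 0.22), Kcnb2 (-1.11, SE 0.20), Kcnv1 (-1.07, SE 0.21) and Kcnmb2 (-0.995, SE 0.32) were lower.

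In this comparison 6 marker lists had sums that did not overlap, with no marker at 0. Neural progenitor markers summed to 1260 to 2126 in WT-Flx and 566 to 1089 in HT-Flx, with 4 of 4 lower. The sum of 4 neuronal markers ranged from 107248 to 118698 and from 63143 to 97539 (1 higher and 3 lower), and that of 5 astrocyte markers from 86258 to 97418 and from 54785 to 82880 (2 higher and 3 lower). Sums were higher in HT-Flx for 3 glutamatergic markers (30726 to 39901 and 44005 to 94494, 1 higher and 1 lower), 5 of mature oligodendrocytes (166906 to 221283 and 222373 to 249409, 2 higher and 1 lower) and 3 endothelial markers (3548 to 4665 and 4724 to 5770, 1 higher). Their part in the members' differences was not tested. The fold changes followed the GC content of the transcripts: Pearson's r was 0.783 across the 80 members and 0.730 across all genes, where points share libraries, and median GC content was 58.8% in the members called higher, 44.6% in those called lower and 51.5% in the rest. After the GC and length correction 21 members passed, 10 higher and 11 lower, against 37.2% of all genes, and 14 of the 54 were among them. Those that remained higher included Kcng4 (1.02, adjusted p = 0.0459), Kcnab2 (0.48, adjusted p = 0.00153), Kcna6 (0.47, adjusted p = 0.000611) and Kcnh2 (0.41, adjusted p = 0.00337). Kcnj12 (0.43), Kcnk3 (0.24), Kcnb2 (-0.25), Kcnh7 (-0.12), Kcnt2 (-0.16), Kcnv1 (-0.06) and Kcnmb2 (-0.20) no longer passed. Kcna3 lay apart from that slope. It had 229.1, 243.1, 249.4, 201.7 and 251.6 normalised counts in WT-Flx and 57.2, 144.2, 53.71, 142.8 and 113.2 in HT-Flx, without overlap, and with a GC content of 60.3% its log2 fold change was -1.31 before (SE 0.27, adjusted p = 0.00102) and -1.98 after the correction (adjusted p = 0.000335).

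**Figure D4:**
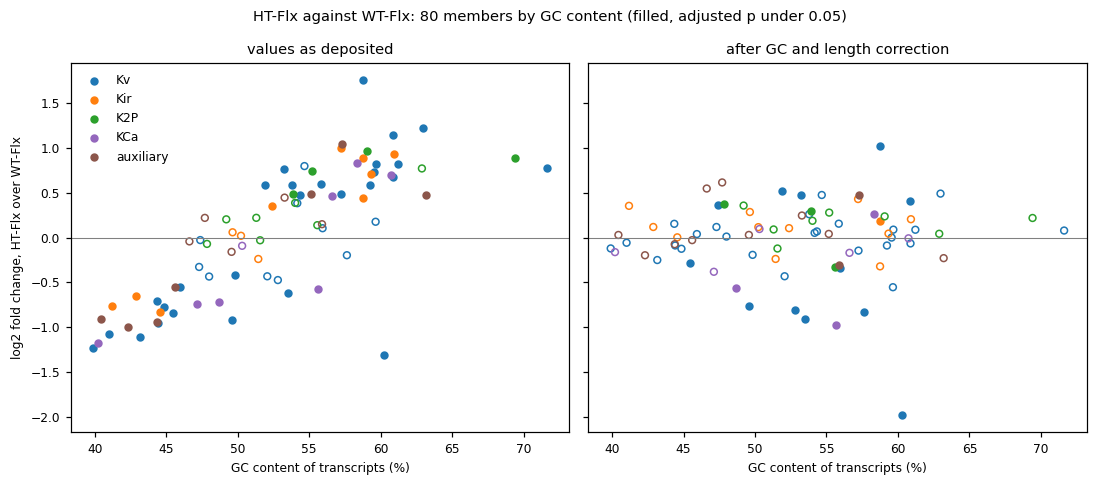
Log2 fold change of HT-Flx over WT-Flx (y axis) against GC content of transcripts in percent (x axis) for 80 members coloured by class, as deposited (left) and after the GC and length correction (right); filled points passed an adjusted p of 0.05. The slope on the left (r = 0.783) is absent on the right, where 21 points are filled and Kcna3 is lowest at -1.98.

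In HT-Flx against WT-Veh, 33 of 80 members passed, 23 higher and 10 lower, against 43.3% of all genes (23.4% higher and 19.9% lower). With median-of-ratios rescaling the split was 19 higher and 13 lower, and after the GC and length correction 1 higher and 3 lower, against 10.3% of all genes. Without WT-Veh replicate 2 the count was 31, and without HT-Flx replicate 3 it was 21. The shares of all genes with rescaling or without these libraries are not given here, so these counts are not set against them. Kcna6, an axonal delayed rectifier, was the member higher both as deposited and after the correction. It had 3533, 4415, 5329, 4864 and 4151 normalised counts in WT-Veh and 7145, 7238, 6355, 6420 and 5939 in HT-Flx (log2 fold change 0.58, SE 0.11, adjusted p = 0.00742). Its fold change was 0.42 after the correction (adjusted p = 0.0188). Kcnd3 (-0.51) and Kcnma1 (-0.58) were lower under both, named here after their values were seen. Of the largest changes as deposited, Kcnk15 (0.98), Kcng4 (0.97), Kcnk5 (0.95), Kcnh2 (0.69) and Kcnj14 (0.67) were higher and Kcnmb2 (-1.16), Kcnt2 (-0.81), Kcnc2 (-0.64), Kcnip4 (-0.63), Kcnq3 (-0.62) and Kcnj3 (-0.61) lower. The direction of Kcnq3 turned with the correction, to 0.0185. Non-overlap was found in 12 members, all higher, and in 20.8% of all genes.

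The interaction of genotype and fluoxetine tests whether fluoxetine changed a gene differently in HT than in WT over the 20 adult libraries. It passed in 18 of 80 members, 15 higher and 3 lower, against 27.3% of all genes (15.8% higher and 11.5% lower). A fit with all 6 groups gave 39, 24 higher and 15 lower, and the share of all genes it called is not given here. The GC and length correction gave no member, and leaving out both vehicle libraries numbered 2 gave none. With single libraries left out the count ran from 0, as without WT-Veh replicate 2 or HT-Flx replicate 1, to 38 without HT-Veh replicate 1. Positive terms included those of Kcng4 (1.46, SE 0.53, adjusted p = 0.0467), Kcnab2 (0.97, SE 0.27, adjusted p = 0.0347) and Kcnh2 (0.94, SE 0.28, adjusted p = 0.0347). The negative terms were those of Kcnu1 (-0.92, SE 0.26), Kcnip4 (-0.85, SE 0.30) and Kcnab1 (-0.80, SE 0.22). After the GC and length correction Kcng4 was at 0.83, Kcnab2 at 0.49, Kcnh2 at 0.32 and Kcnu1 at -0.61, and Kcnip4 and Kcnab1 at -0.03 and -0.08. Across members the term correlated with GC content at r = 0.757, and across all genes at 0.713.

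Other proteins of the channel complexes were followed as a list of 32 genes, of which 31 were tested: receptors and scaffolds of Kv and BK channels, calmodulins, and the Hcn pacemaker channels. With age 10 rose and 10 fell in WT, and 8 rose and 9 fell in HT, where 58.3% and 51.1% of all genes passed. After the GC and length correction 15 rose and 8 fell in WT, and 15 rose and 7 fell in HT, where the shares of all genes are not given here. Lgi4, a secreted ligand of the ADAM receptors at Kcna channels, rose by 2.13 (SE 0.14, adjusted p = 7.41e-08), the BK gamma subunit Lrrc38 by 1.70 (SE 0.21) and Hcn2 by 1.35 (SE 0.095). Falls were largest for Abcc9, for Lrrc55, another BK gamma subunit, at -1.22 (SE 0.10), and for Hcn3 at -0.80 (SE 0.10). No gene of the list passed for genotype at either age or for fluoxetine within a genotype. In HT-Flx against WT-Flx 15 were higher and 12 lower, against the same 63.7% of all genes, among them Hcn2 at 1.19 (SE 0.14) and Lgi1 at -1.07 (SE 0.15). HT-Flx against WT-Veh gave 14 higher and 4 lower, against 43.3% of all genes, and the interaction 11 and 4, against 27.3%. After the correction these counts were 12 higher and 3 lower in HT-Flx against WT-Flx, 4 and 1 in HT-Flx against WT-Veh, and none in the interaction. Hcn2 was then at 0.43 and Lgi1 at -0.21 in HT-Flx against WT-Flx.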

How the data were processed

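Whole-brain RNA of 30 mice was sequenced by the authors as poly-A TruSeq libraries, quantified with Salmon 1.1.0 against GRCm38 and scaled with DESeq2 1.30.1, tools named in the submitters' processing notes. The deposited values are this normalised signal per gene: only 0.212% of values above 0 were whole within 0.001, so reads could not be recovered, the depth per library is unknown and no count model was run. Every HT-Flx library summed to a higher total than every WT-Flx library. Identifiers matched a gene symbol for 99.9% of genes. GC content, positions and transcript lengths came from the GRCm38 annotation.

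Values were tested on the log2(value + 1) scale with limma 3.58.1 (intensity trend) in R 4.3.3, on genes with a mean of at least 10 in the compared libraries, with Benjamini-Hochberg adjustment over all of them and a threshold of 0.05. A fold change on this scale understates the change of low genes. Only the compared groups entered each fit, except the interaction terms, which used all 4 groups concerned. Exact permutation tests were two-sided, over 126 mirrored splits for 5 against 5 and 35 for 4 against 4. The script was tested on simulated data. Each library is labelled as a separate mouse sample. Which mice shared a litter or a dam, through which the treatment was given, is not stated in the sources used here, so p-values measure the spread between these samples.

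Members, classes and lists were chosen with earlier results of these data known. Genes named were, with age, the 4 largest rises and falls per class past the threshold with a mean of at least 50 and a set of well-known subunits, and in the other comparisons every called member up to 12, otherwise the 6 largest each way, with the 3 smallest p. Other genes were named after their values were seen. Alternatives were other pseudocounts and filters, median-of-ratios rescaling, no trend, a replicate block, all 6 groups in one fit, each library left out, and, added after the data were seen, subtraction of each library's mean deviation in bins of GC content by transcript length. Matches to promoter motifs were letter matches in RefSeq windows. The values of some genes of the family are not reported here; those measured are included in the counts and class sums.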

Additional observations from a re-analysis of the deposited data

Results flagged for a closer look

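Among the member genes given with values, some libraries lay far from the other 4 of their group (gap to the nearest library over the range above 0.71), which chance gives in about 1 in 20 groups. Over all members this was found in 31 of 480 groups, 6.46%, and 9 of the 31 were in HT-P10 replicate 1. In that library Kcnc4 was at 2308, Kcne2 at 21.33, Kcnh2 at 1064 and Kcnj8 at 115.5 normalised counts, all low for the group, and Kcnq5 at 2981 was high. Its balance of GC-rich and GC-poor genes was -0.80, against -0.57 to -0.45 in the other HT-P10 libraries. The part of this balance in these values was not tested. Elsewhere Kcnc2 (1990) was low and Kcnj8 (141.7) high in WT-Veh replicate 3, Kcnd1 (462.1) was low in WT-P10 replicate 1, and Kcnk5 (67.96) and Kcnma1 (7669) were high in WT-P10 replicate 5. Kcnj12 (1472) and Kcnq1 (45.57) were high in HT-Flx replicate 5, and Kcnq1 was also high in HT-P10 replicate 5 (68.53) and WT-Flx replicate 1 (38.91).

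The change with fluoxetine differed between HT and WT, as deposited, for 18 of 80 members by the interaction term of limma with Benjamini-Hochberg adjustment. The share of all genes that passed was 27.3%. None of these 18 members passed after the GC and length correction, nor when the vehicle libraries that went against their labels were left out. Of these, 15 are given. The difference (log2, HT minus WT) was 1.46 for Kcng4, 0.97 for Kcnab2, 0.944 for Kcnh2, 0.8526 for Kcnk3, 0.8422 for Kcnj12, 0.8098 for Kcnj11, 0.7926 for Kcnj14, 0.7921 for Kcnn1, 0.7256 for Kcng1, 0.6525 for Kcnc4, 0.5848 for Kcna6 and 0.3929 for Kcnt1. It was -0.8017 for Kcnab1, -0.8527 for Kcnip4 and -0.9177 for Kcnu1. After the correction the terms themselves were nearer to 0: Kcnt1 turned to -0.155, and Kcnc4 was at 0.0249, Kcnip4 at -0.0294 and Kcnab1 at -0.0850, whereas Kcng4 was at 0.831 and Kcnu1 at -0.614.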

How the results depend on the processing

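For the age comparisons the count of members called stayed within 1.5 times of 58 in WT and 53 in HT under every alternative run, from 55 to 59 and from 50 to 57 with each library left out. No member was called for genotype at P10, for genotype with vehicle or for the age difference between genotypes under any alternative run. Fluoxetine results were less stable. HT-Flx against HT-Veh had 3 calls with the replicate block and 23 with all 6 groups in one fit, and WT-Flx against WT-Veh had 0 to 7 with each library left out. HT-Flx against WT-Flx went from 54 to 21 with the GC and length correction and 17 with the replicate block added to it, and HT-Flx against WT-Veh from 33 to 4 and 5, and to 21 to 43 with each library left out. The interaction went from 18 to 39 with all 6 groups in one fit, to 0 with the correction, with or without the block, to 0 without the vehicle libraries numbered 2, and to 0 to 38 with each library left out: 0 without HT-Flx replicate 1, HT-Veh replicate 4 or 5, WT-Flx replicate 2 or 3, or WT-Veh replicate 2, 3 or 4, 38 without HT-Veh replicate 1, 31 without HT-Flx replicate 4 or WT-Veh replicate 1, and 28 without HT-Veh replicate 3. The causes of these shifts were not tested, and these counts of members are not set against shares of all genes.

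Signs were checked under every alternative only for the genes named by rule in each comparison. With the correction, with or without the block, the sign turned for Kcnd2 (0.0311) and Kcnmb4 (-0.23) with age in WT, for Kcnj6 (0.0286), Kcnd2 (0.12), Kcnj3 (0.41), Kcnma1 (0.0160) and Kcnmb4 (-0.49) with age in HT, and for Kcnq3 (0.0185) in HT-Flx against WT-Veh. Other called members turned with the correction too, and not all are listed. Kcnt1 turned to -0.155 in the interaction. In HT-Flx against WT-Flx, Kcnj9 (-0.32), Kcnt1 (-0.17), Kcnmb4 (-0.23) and Kcng1 (-0.09) had been called higher as deposited. Kcnd2 (0.15) and Kcnip4 (0.03) had been called lower there. With each library left out, Kcnj3 with age in WT ranged from -0.0322 (without WT-Veh replicate 1) to 0.159 (without WT-Veh replicate 3), and Kcnmb4 with age in HT from -0.0328 (without HT-Veh replicate 1) to 0.112 (without HT-Veh replicate 5). Replicate numbers recur in each group, but libraries of the same number did not deviate together throughout. The lowest correlation of a pair was under 0.1 in every comparison, with means from -0.05 to 0.18. Single pairs reached 0.407 in HT-Flx against HT-Veh, where the mean was 0.179, and 0.352 in WT-Flx against WT-Veh. The numbers were not taken as pairing.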
